A study of Rattus norvegicus with 102 samples.

Results

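The 37 genes of the rat mitochondrial chromosome were examined in the hippocampus of young and aged rats. They were all the genes whose chromosome was given as MT in the deposited tables, 37 of the 26284 genes listed there. Of these, 13 encode proteins, 2 are ribosomal RNA (rRNA) genes and 22 are transfer RNA (tRNA) genes by their annotated biotype. Male rats of the Fisher 344 strain (spelled Fischer 344 in the study's methods) had been trained in a water maze. From the hippocampus of each, CA1, CA3 and the dentate gyrus (DG) had been dissected. The series record describes a dorsal slice and the study's methods a dissection along the structure, so the extent of the tissue is uncertain. The groups were 10 young rats of 5 to 6 months, 12 aged-unimpaired (AU) rats and 12 aged-impaired (AI) rats, both of 17 to 22 months and parted by their spatial discrimination in the maze. Each of the 34 rats gave 1 library per subfield in each table. Pieces of whole tissue were sequenced, so fewer cells of a type and less RNA per cell cannot be told apart.

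The mitochondrial chromosome is a small circular genome that is transcribed from both strands as long precursor RNAs, which are then cut at the tRNAs into separate transcripts. Its protein-coding genes all encode subunits of the respiratory chain complexes or of ATP synthase, beside many more subunits that come from the nucleus. Its rRNAs and tRNAs serve the translation of these proteins inside the organelle, and mitochondrial messenger RNAs receive short poly-A tails. Neurons depend heavily on oxidative phosphorylation to pay for synaptic transmission and ion pumping.

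Gene counts divided by a size factor were taken from 2 tables, the Illumina table of poly-A RNA and a table that the submitters named WT, whose library type is not given in the sources used here. The poly-A libraries held 3246922 to 42750899 reads on genes (median 10745742) and the WT libraries 3539310 to 20625745 (median 8068863). Rat numbers fell into 2 series, with 18 rats numbered below 9000 and 16 numbered from 9000 up, each holding young, AU and AI rats. The rats had come from 2 sites, but no label ties a number to a site. By marker genes, the 5 tested CA1 pyramidal markers were all higher in CA1 than in either other subfield, and all 8 tested dentate granule markers were higher in DG than in CA3 and 7 of 8 than in CA1. The CA3 label was less clear: of 9 tested CA3 markers, 5 were higher in CA3 than in CA1, but 1 was higher and 3 were lower in CA3 than in DG. The CA1 label was not fully clear either. Of the 8 dentate granule markers, 7 were higher in CA1 than in CA3 in the poly-A libraries, with a median log2 difference of 0.946. Of the 9 CA3 markers, 1 was higher and 6 were lower in CA1 than in DG there. The part of these neuronal markers in the mitochondrial differences was not tested. Single libraries stood nearer to another subfield by these markers in 15 poly-A cases and 20 WT cases, most of them CA3 libraries of rats numbered from 9000 up (8 of 16 and 13 of 16). For the messengers and rRNAs, the poly-A subfield differences that rest on CA3 are therefore given for both series. Single tRNA genes, rat counts of the messenger make-up, nuclear genes and the effects of age and status are mostly given over all rats.

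In the poly-A libraries a large part of all reads fell on these genes, most in CA1 and least in DG. The CA1 libraries had a share of 14.4% ± 1.83 (SD, n = 34), with a lowest, median and highest of 11.9%, 14.2% and 20.4%. CA3 followed at 13.5% ± 3.24 (8.92%, 12.7% and 20.5%), and DG at 11.7% ± 1.43 (8.98%, 11.4% and 15.3%). The ranges overlapped, but CA1 was above DG of the same rat in 32 of 34 rats. The order of CA3 differed between the number series. In rats numbered below 9000 CA1 had a median of 13.7%, CA3 of 10.9% and DG of 11.1%, and CA1 was above CA3 in 18 of 18 rats. From 9000 up they were 14.6%, 15.7% and 11.7%, with CA1 above CA3 in 5 of 16 rats and CA3 above DG in 15 of 16. These shares are a description of the libraries and were not tested.

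**Figure D1:**
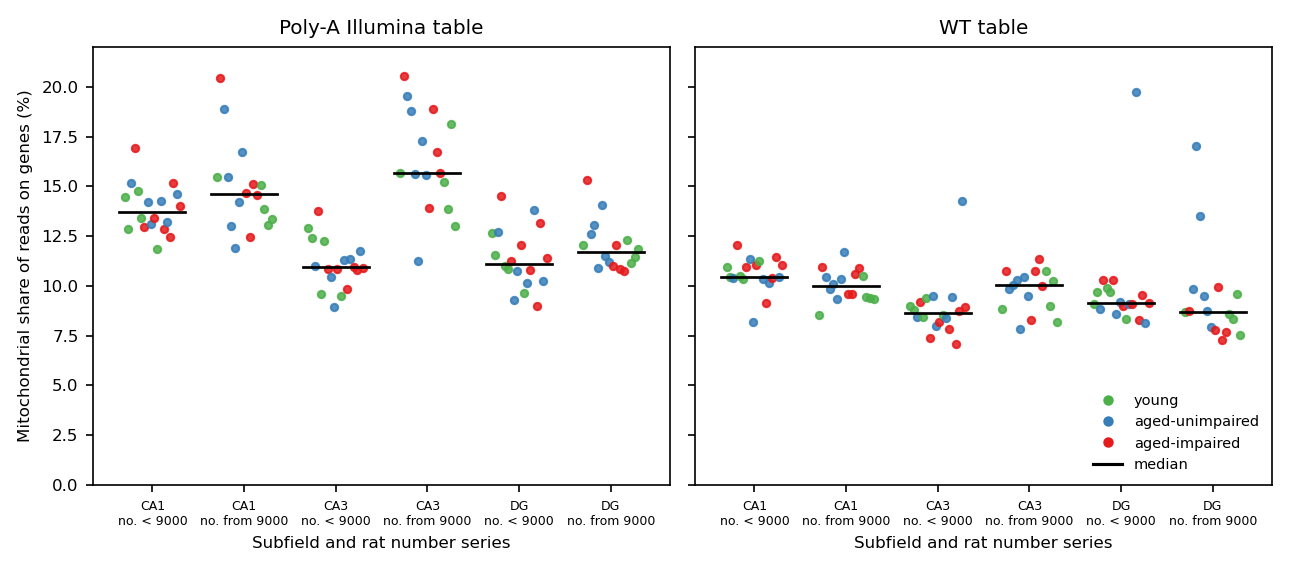
Share of reads on genes that fell on the mitochondrial chromosome (y axis, %), with 1 point per library, by subfield and rat number series (x axis), in the poly-A table (left) and the WT table (right). Colours mark young, AU and AI rats, and black lines mark medians. The CA3 median of the poly-A table is 10.9% below 9000 and 15.7% from 9000 up, while the young, AU and AI points are interleaved in every column.

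Within a poly-A library the mitochondrial reads were 93.4% ± 2.03 messenger RNA (SD over all libraries), 6.54% ± 2.03 rRNA and 0.0996% ± 0.0132 tRNA. Mt-co1, the catalytic core subunit of cytochrome c oxidase, took the most of them at 26.2% ± 1.18. The other messengers ranged from 0.854% ± 0.0849 for ND3 to 11.0% ± 0.307 for Mt-atp6. These shares were not divided by gene length, which is not given in the tables, so they do not rank the genes by transcript number. The AI library of CA3 from rat R9875 stood apart, with 26.2% of its mitochondrial reads on the rRNAs, and was also the shallowest at 3246922 reads. Across all libraries of the table, each messenger moved closely with the sum of the other 12, with Pearson's r from 0.871 for Mt-nd5 to 0.991 for Mt-atp6. In the WT table the movement was looser, with r from 0.604 for Mt-co1 to 0.912 for Mt-co2. These points share libraries, rats and subfields, and the values describe their common movement.

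All 13 protein-coding genes and both rRNA genes were higher in CA1 than in DG in the poly-A table. Calls rest on an adjusted p from limma (Benjamini-Hochberg, over all genes tested) under 0.05. Differences are log2 differences of the normalised reads plus 1, with standard errors (SE). Of the 31 mitochondrial genes that passed the filter on low values, 26 were higher and 0 lower, in a comparison that called 55.6% of all 14179 tested genes and 29% as higher. The remaining 6, all tRNA genes, had a mean under 10 and were not tested. The 13 messengers rose by similar amounts, 0.26 to 0.39, with a median of 0.31, beside a median of 0.003 over all tested genes. The increase in CA1 was seen in 30 to 33 of 34 rats, depending on the gene.

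Among the 7 subunits of complex I, the entry point for electrons from NADH, ND1 differed most. Its normalised reads were 98954 in the lowest, 120408 in the median and 178230 in the highest library of CA1, and 66383, 94842 and 129384 in DG. Every CA1 library lay above the DG median although the ranges overlapped, and the difference was 0.39 (SE 0.07, limma adjusted p = 3.37e-06). Mt-nd4l differed least, by 0.26 (SE 0.07, limma adjusted p = 0.000601). The single-library values of Mt-nd4l were 14390 to 25180 in CA1 (median 17707) and 10829 to 19958 in DG (median 14741), so that its groups overlapped more. Mt-nd6, the one messenger that lies on the opposite strand from the others, was 0.34 higher (SE 0.07, limma adjusted p = 6.25e-05), and was above DG in 33 of 34 rats. Its CA1 libraries ranged from 15838 to 28055 (median 19225) and its DG libraries from 10724 to 20738 (median 15614). Mt-nd2, ND3, Mt-nd4 and Mt-nd5 lay between, at 0.31, 0.33, 0.28 and 0.31.

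The single mitochondrial subunit of complex III, Mt-cyb (cytochrome b), had 147015, 168489 and 244648 normalised reads in the lowest, median and highest CA1 library and 107198, 140446 and 180550 in DG. The groups overlapped, with all 34 CA1 libraries above the DG median, and the difference was 0.28 (SE 0.06, limma adjusted p = 3.37e-05). In complex IV, which passes electrons to oxygen, Mt-co1 had 407595, 482154 and 740633 in CA1 and 291934, 398991 and 548619 in DG. It was 0.30 higher (SE 0.07, limma adjusted p = 6.06e-05), and its partner subunits Mt-co2 and Mt-co3 were 0.33 and 0.31 higher. Mt-co2, which takes electrons from cytochrome c, had 114288 to 261513 normalised reads in CA1 (median 145417) and 97717 to 195986 in DG (median 121161). The ATP synthase subunits Mt-atp6 and Mt-atp8, whose reading frames overlap, were 0.31 and 0.29 higher. Mt-atp6, part of the proton channel, had 169463, 206607 and 319379 in CA1 against 129454, 163883 and 237908 in DG, and all 34 CA1 libraries were above the DG median for both subunits.

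The rRNAs showed the same direction. AY172581.24 (ENSRNOG00000043866) had 54882, 73335 and 115976 normalised reads in CA1 and 42425, 56517 and 74419 in DG, a difference of 0.38 (SE 0.09, limma adjusted p = 0.000325). AY172581.9 (ENSRNOG00000030478) was also 0.38 higher (SE 0.09, limma adjusted p = 0.000173). The tables do not say which of them is the large and which the small subunit rRNA. Of 16 tested tRNA genes 11 were called, all higher in CA1, led by AY172581.16 at 0.46 (SE 0.13), AY172581.15 at 0.43 (SE 0.07) and AY172581.20 at 0.42 (SE 0.07). The most abundant tRNA gene, AY172581.2, rose by 0.22 (SE 0.05, limma adjusted p = 0.000193), from a median of 547 normalised reads in DG to 650 in CA1.

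**Figure D2:**
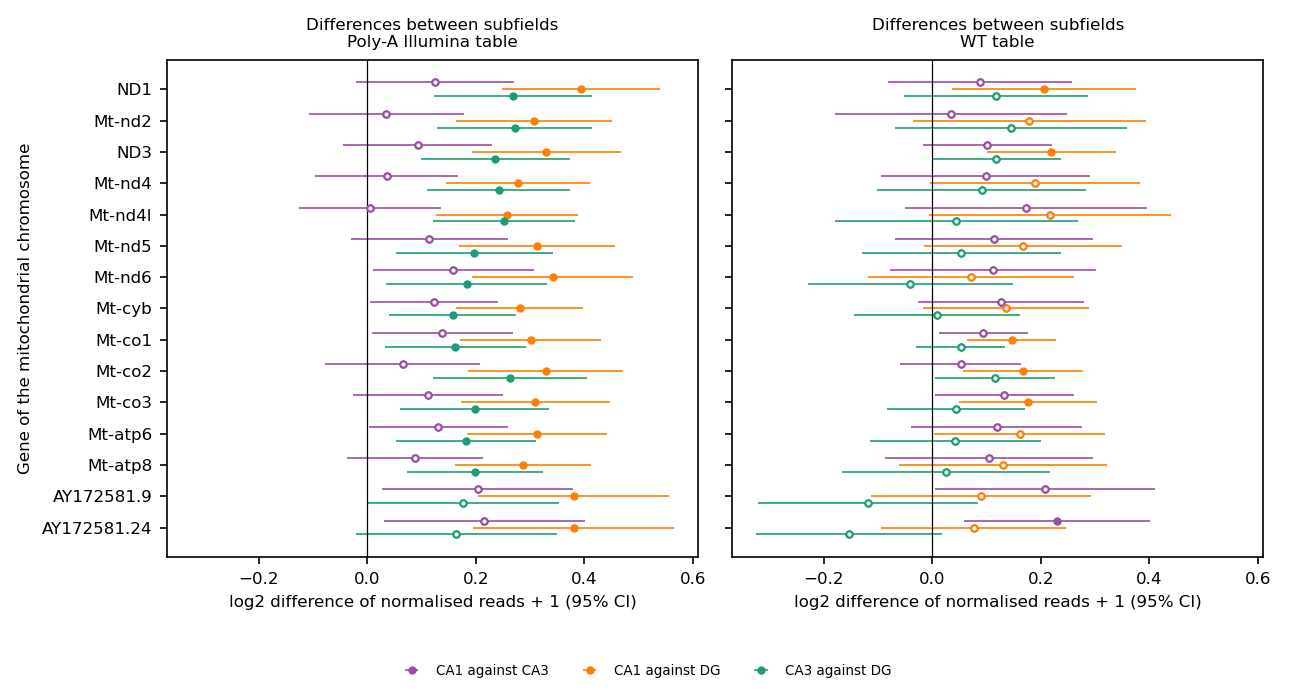
Differences between subfields (x axis, log2 difference of normalised reads plus 1, with 95% confidence intervals) for the 13 protein-coding and 2 rRNA genes (y axis), in the poly-A table (left) and the WT table (right). Filled points have a limma adjusted p under 0.05 and open points do not. In the poly-A table all genes are filled for CA1 against DG, and none for CA1 against CA3.

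Glial and vascular markers also stood higher in CA1 than in DG: 11 of 11 tested oligodendrocyte markers, 10 of 10 microglial, 7 of 7 endothelial, 5 of 10 astrocyte, 5 of 8 choroid plexus and 5 of 6 blood markers were called higher. The mean log2 level of the oligodendrocyte markers ranged from 11.5 to 13.1 in CA1 libraries and from 10.7 to 12.8 in DG libraries. The part of these cell types in the mitochondrial difference was not tested. The result was alike within both number series, with 13 of 13 messengers and both rRNAs called higher in CA1 in each (messengers 0.21 to 0.41 below 9000 and 0.29 to 0.38 from 9000 up), where 27.4% and 18.5% of all genes were called higher. A test of the difference between the series called 0 of 31 mitochondrial genes by limma, with 1 at an unadjusted p under 0.05, in a comparison that called 0.839% of all genes.

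CA3 also stood above DG over all rats, with 13 of 13 messengers called higher by 0.16 to 0.27, in a comparison that called 55.6% of tested genes and 28.9% as higher. Mt-nd2, a membrane subunit of complex I, had 73814, 113261 and 232990 normalised reads in the lowest, median and highest CA3 library and 79453, 96189 and 153433 in DG. The lowest library of all was thus a CA3 library although the CA3 median was above that of DG. Mt-nd2 differed most, by 0.27 (SE 0.07, limma adjusted p = 0.000825), and Mt-cyb least, by 0.16 (SE 0.06, limma adjusted p = 0.0186). The rRNAs were 0.16 and 0.18 higher without passing the test (limma adjusted p = 0.126 and 0.0824). Of 16 tested tRNA genes 9 were higher, led by AY172581.10 at 0.39, AY172581.20 at 0.38 and AY172581.18 at 0.38. Higher in CA3 as well were 11 of 11 oligodendrocyte, 10 of 10 microglial, 5 of 7 endothelial, 4 of 10 astrocyte, 2 of 8 choroid plexus and 1 of 6 blood markers, and their part in the difference was not tested. Between CA1 and CA3, 1 of 31 mitochondrial genes was called, the tRNA gene AY172581.23, which was 0.32 higher in CA1 (SE 0.09, limma adjusted p = 0.00470), while the comparison called 35.4% of all tested genes. The messengers were 0.01 to 0.16 higher in CA1 and the rRNAs 0.20 and 0.22 higher (limma adjusted p = 0.0644 and 0.0602). With rat as a block, 8 genes were called higher in CA1, namely 4 messengers, both rRNAs and 2 tRNA genes, where 21.1% of all genes were called higher. Without the single rRNA-rich CA3 library of rat R9875, 3 were called, including both rRNAs, and without the rats sequenced most deeply, 2, where 38.8% and 28.4% of all genes were called.

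Both comparisons with CA3 depended on the rat number series. Mt-co1 had 319805, 379096 and 456929 normalised reads in the lowest, median and highest CA3 library of rats numbered below 9000, and 370924, 555455 and 700858 from 9000 up. ND1 had 70792, 92195 and 106938 against 93270, 155637 and 185679. AY172581.24 had 38644, 48735 and 59315 against 52480, 80324 and 349257, the last being the rRNA-rich library of rat R9875. For all 3 genes the upper series began inside the range of the lower series but reached far above it. Below 9000, all 13 messengers were higher in CA1 than in CA3 (0.17 to 0.39), as were both rRNAs (0.53 and 0.58), and CA3 and DG differed in 0 messengers by limma, with 0 at an unadjusted p under 0.05, while both rRNAs were lower in CA3 (-0.15 and -0.19), where 62% of all genes were called and 29.5% as lower in CA3. Within that series 28.2% of all genes were called higher in CA1 than in CA3. From 9000 up, CA1 and CA3 differed in 0 mitochondrial genes by limma, with 4 at an unadjusted p under 0.05 and every messenger estimate negative (-0.18 to -0.06), in a comparison that called 13.7% of all genes, while all 13 messengers and both rRNAs were higher in CA3 than in DG. In that series 19.3% of all genes were called higher in CA3 than in DG.

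**Figure D3:**
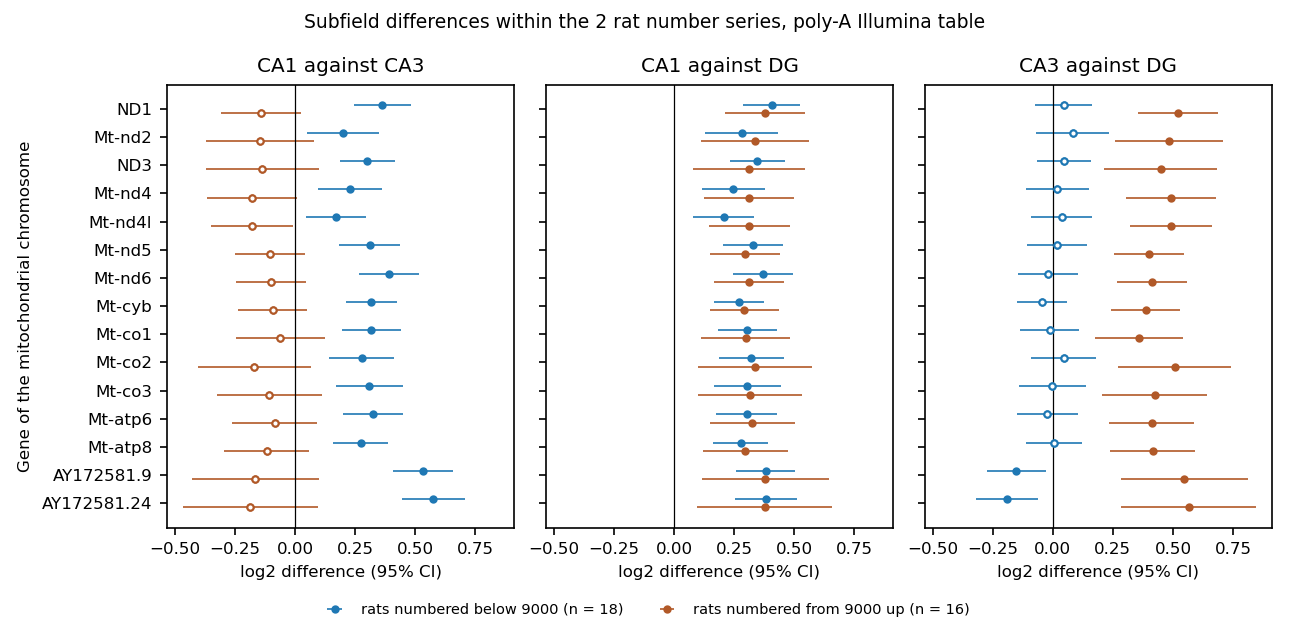
Subfield differences in the poly-A table within rats numbered below 9000 (blue, n = 18) and from 9000 up (brown, n = 16), as log2 differences with 95% confidence intervals (x axis) for the protein-coding and rRNA genes (y axis). Filled points have a limma adjusted p under 0.05. The series overlap for CA1 against DG and part for the comparisons that include CA3.

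Tested directly, the difference between CA1 and CA3 was larger below 9000 than from 9000 up for 20 of 31 mitochondrial genes, among them all 13 messengers (by 0.35 to 0.50) and both rRNAs (by 0.70 and 0.76), where 39.7% of all genes were called. The difference between CA3 and DG changed for 23 of 31 genes, where 48.4% of all genes were called. By subfield in the poly-A table, 27 of 31 genes were higher from 9000 up in CA3 (messengers by 0.41 to 0.74), while CA1 had 5 higher and 0 lower, and DG 5 higher and 3 lower. Of all genes, 57.3% were called in CA3, 33.2% in CA1 and 25.5% in DG. The WT table did not share the CA3 shift. There 1 of 25 genes was higher and 0 lower in CA3, with 0 of 13 messengers called (-0.29 to 0.12). CA1 had 0 higher and 1 lower, and DG 0 higher and 3 lower. Of all genes, 43.9%, 14% and 35.1% were called. This comparison of the series was chosen after seeing the data.

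Other markers moved with the series too. In CA3 the median level of the CA1 pyramidal markers was 7.30 below 9000 (range 5.58 to 7.93) and 8.41 from 9000 up (range 6.84 to 9.01), that of the CA3 markers 8.33 and 7.85, and that of the blood markers 6.00 and 7.68. Oligodendrocyte markers went the other way, at 12.5 and 11.9. Their part in the CA3 result was not tested. Among the 16 CA3 libraries from 9000 up, the 8 nearest to CA3 by markers had a median mitochondrial share of 15.6% (11.2% to 19.5%), and the 8 nearer to another subfield 16.2% (13.9% to 20.5%). Without all libraries nearer to another subfield, 14 of 31 genes were called higher in CA1 than in CA3, and 13 rather than 22 in CA3 than in DG, where 23% and 31.3% of all genes were called higher.

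The make-up of the messenger reads also differed between subfields and series, by small amounts. ND1 took 7.06% of the CA1 messenger reads, 7.0% of those in CA3 and 6.66% of those in DG, and was higher in CA1 than in DG in 33 of 34 rats. Mt-cyb took 9.65% in CA3 and 9.95% in DG, with CA3 above DG in 3 of 34 rats, and Mt-nd4 took 7.25% in CA1 and 7.62% in CA3, with CA1 above CA3 in 4 of 34. In all 3 subfields the shares of ND1, Mt-nd5 and Mt-nd6 were higher from 9000 up and those of Mt-co2, Mt-co3, Mt-nd2 and ND3 lower. In CA3, for example, ND1 took 6.55% below 9000 and 7.51% from 9000 up, and Mt-co3 11.3% and 10.6%. These shares were not tested.

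The nuclear genes that work with the mitochondrial chromosome did not share one direction across gene lists and subfield comparisons, though single comparisons were one-sided. In the poly-A table, among 68 tested nuclear subunits of complexes I, III, IV and V, 12 were higher and 5 lower in CA1 than in DG, 23 higher and 2 lower in CA3 than in DG, and 0 higher and 9 lower in CA1 than in CA3. Of all genes, 29%, 28.9% and 18.3% were called higher and 26.7%, 26.7% and 17.1% lower in these comparisons. In the WT table the counts were 6 higher and 7 lower, 19 higher and 2 lower, and 0 higher and 20 lower, where 23.5%, 25.3% and 16.5% of all genes were called higher and 22.4%, 23.4% and 16.5% lower, so that the median for CA1 against DG was negative there (-0.02). The poly-A median differences were 0.03, 0.08 and -0.03, beside 0.003, 0.01 and 0.006 over all tested genes. Cox8a, a small subunit of complex IV, was 0.21 higher in CA1 than in DG (SE 0.05) and 0.15 higher in CA3 than in DG (SE 0.05). Ndufc2 of complex I was 0.18 higher in CA1 than in DG (SE 0.04), and Atpif1, which inhibits ATP hydrolysis by the synthase, was 0.18 lower in CA1 than in DG (SE 0.05).

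In the poly-A comparisons with DG, 62 tested genes that copy, transcribe, process or regulate the mitochondrial chromosome and its RNA had 5 called higher and 17 lower in CA1, and 5 higher and 12 lower in CA3, where 29% and 28.9% of all genes were called higher and 26.7% lower in each. Of 9 tested transcription genes, 0 were higher and 6 lower in CA1 than in DG, and 0 higher and 4 lower in CA3 than in DG, and the WT table had 0 higher with 5 and 4 lower, where 22.4% and 23.4% of all genes were called lower. Tfam, which packs mitochondrial DNA and starts its transcription, was 0.16 lower in CA1 than in DG (SE 0.03, limma adjusted p = 5.93e-06) and 0.21 lower in CA3 than in DG (SE 0.03, limma adjusted p = 8.64e-09). Tfb1m, a methyltransferase of the mitochondrial rRNA, was 0.22 lower in CA1 than in DG (SE 0.03), as was Mterfd3, of the transcription termination factor family, by 0.26 (SE 0.05). Of 18 tested replication and nucleoid genes 1 was higher and 7 lower in CA1 than in DG, and 0 higher and 5 lower in CA3 than in DG. The WT table had 1 higher and 4 lower, and 3 higher and 3 lower, in these comparisons, where 23.5% and 25.3% of all genes were called higher and 22.4% and 23.4% lower. Of 26 tested RNA processing and decay genes 3 were higher and 4 lower in CA1 than in DG. Among 11 regulators of mitochondrial genes, Esrra, a nuclear receptor that drives respiratory genes, was 0.23 higher in CA1 than in DG (SE 0.03, limma adjusted p = 1.01e-11), and the coactivator Ppargc1b was 0.26 lower (SE 0.08). Between CA1 and CA3, 5 of the 62 genes were called higher and 12 lower in CA1, where 18.3% of all genes were called higher and 17.1% lower. Gabpa, a transcription factor subunit that acts on respiratory genes, was 0.11 higher in CA1 (SE 0.04, limma adjusted p = 0.0114). Top1mt, the mitochondrial topoisomerase, was 0.21 lower in CA1 (SE 0.04), Tfb2m, the core transcription factor, 0.18 lower (SE 0.04) and Ptcd2, an RNA processing protein, 0.23 lower (SE 0.04).

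The WT table drew a different picture of the same samples. The tables were normalised separately, so only shares within a library are set side by side, without a test. The mitochondrial share of reads was 9.74% ± 1.76 (SD) in the WT table and 13.2% ± 2.54 in the poly-A table, and was lower in WT in all but 4 samples. Of the mitochondrial reads 50.2% ± 5.27 fell on the rRNAs in WT, against 6.54% in poly-A, and 49.5% ± 5.26 on messengers. The rRNA share was higher in WT in every sample, as was the tRNA share (0.276% ± 0.0535). One rRNA carried most of this: AY172581.24 rose from 3.85% to 43.5% of mitochondrial reads, and AY172581.9 from 2.70% to 6.73%. Their ratio, AY172581.9 over AY172581.24, was 0.704 ± 0.0202 in poly-A and 0.155 ± 0.0207 in WT, without overlap between the tables.

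The messengers did not shift evenly. Mt-co1 took 26.2% of mitochondrial reads in poly-A and 30.6% in WT, and was higher in WT in all but 9 samples. ND3 took 0.854% and 1.51%, higher in all but 1. The other 11 messengers had a lower share in WT in every sample. As a ratio of the shares, Mt-nd2 fell furthest, from 6.70% to 0.619%, and Mt-co2 least, from 8.29% to 4.27%, while in percentage points Mt-atp6, from 11.0% to 2.72%, fell by more than Mt-nd2. Among the tRNA genes AY172581.19 became the most abundant, with 0.0217% of mitochondrial reads in poly-A and 0.135% in WT, ahead of AY172581.2 (0.0375% and 0.0482%) and AY172581.18 (0.00648% and 0.0276%). The mitochondrial share of a sample in one table went only loosely with that in the other (Pearson's r = 0.363 over 34 rats in 3 subfields, points that share rats and subfields).

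**Figure D4:**
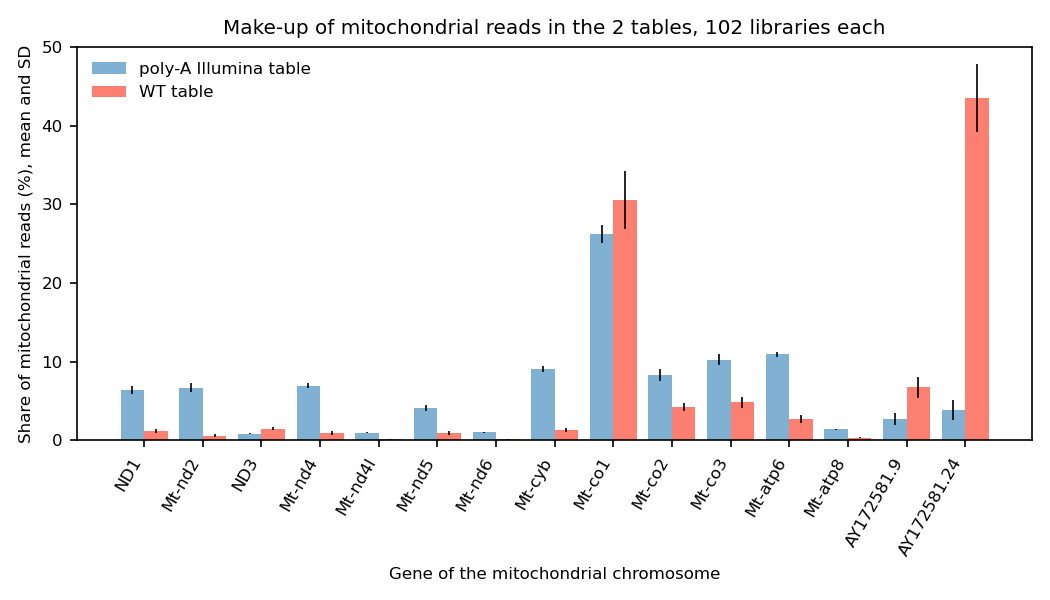
Mean share of mitochondrial reads (y axis, %) taken by each protein-coding and rRNA gene (x axis) in the poly-A table and the WT table, with SD over all libraries of the table as error bars. Mt-co1 has the tallest poly-A bar at 26.2%, and AY172581.24 the tallest WT bar at 43.5% against 3.85% in poly-A.

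In the WT table, fewer of these genes were called between DG and the other subfields. CA1 was above DG for 5 of 13 messengers, Mt-co1 (0.15, SE 0.04), Mt-co2 (0.17, SE 0.06), Mt-co3 (0.18, SE 0.06), ND1 (0.21, SE 0.09) and ND3 (0.22, SE 0.06), and for 1 of 10 tested tRNA genes, AY172581.15 (0.26, SE 0.10), in a comparison that called 45.9% of all 13655 tested genes and 23.5% as higher. Mt-co1 had 201361, 233988 and 272593 normalised reads in the lowest, median and highest CA1 library and 177351, 205745 and 376022 in DG. The groups overlapped, and CA1 was above DG in 28 of 34 rats. The estimates of all 13 messengers were positive, from 0.07 to 0.22. As in the poly-A table, markers of other cells were higher in CA1, with 11 of 11 oligodendrocyte, 10 of 10 microglial, 7 of 7 endothelial, 3 of 10 astrocyte, 3 of 6 choroid plexus and 5 of 6 blood markers called, and their part in the difference was not tested. With rat as a block 10 genes were called higher, where 25% of all genes were. Without the rats sequenced most deeply 3 were called higher (20.6% of all genes), in rats numbered below 9000 6 (22.9%) and from 9000 up 0 by limma, with 0 at an unadjusted p under 0.05 (13.1%). The difference between the series was called for 0 of 25 genes by limma, with 0 at an unadjusted p under 0.05, where 4.35% of all genes were called. Leaving out 2 libraries with a very high rRNA share, the AU libraries of rat R2232 in DG (72.4% of mitochondrial reads) and rat R2237 in CA3 (66.7%), gave 11, of which 9 were messengers, beside 23.7% of all genes called higher. ND3, a small complex I subunit, had 9369, 11974 and 14081 in CA1 against 6639, 9675 and 23459 in DG, so that the single highest library was one of DG.

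Between CA1 and CA3 the WT table called 2 of 25 tested mitochondrial genes, where 33% of all genes were called. AY172581.24 was 0.23 higher in CA1 (SE 0.09, limma adjusted p = 0.0309), and AY172581.2 was 0.22 lower in CA1 (SE 0.09, limma adjusted p = 0.0455). The libraries of AY172581.24 ranged from 213618 to 443731 in CA1 (median 345440) and from 191271 to 642969 in CA3 (median 292567), and overlapped widely. With rat as a block 6 were called, 5 of them higher, where 36% of all genes were called. Without a filter on low values 0 were called by limma, with 4 at an unadjusted p under 0.05 (19.7% of all genes called), and without the rats sequenced most deeply neither of these genes was called. In rats numbered below 9000 8 were called (51.7% of all genes), from 9000 up 1 (12.5%), and without libraries nearer another subfield 4 (44%). Between CA3 and DG 1 gene was called, AY172581.2, 0.22 higher in CA3 (SE 0.09, limma adjusted p = 0.0326), where 48.7% of all genes were called. It was not called by edgeR or DESeq2, or without the rats sequenced most deeply. Both WT rRNA estimates were negative for CA3 against DG (-0.15 and -0.12), unlike in the poly-A table. For CA1 against DG they were 0.08 and 0.09, and neither rRNA was called in these comparisons. The number series changed 0 of 13 messengers in either CA3 comparison by limma, with 1 at an unadjusted p under 0.05 for CA1 against CA3 and 0 for CA3 against DG, and 2 tRNA genes in each, where 32.9% and 45.7% of all genes were called.

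Age and cognitive status left no called difference in any mitochondrial gene, in either table and any subfield. The question was whether aged rats differed from young rats (24 against 10), and AI from AU rats (12 against 12). In the poly-A table limma called for age 0 of the 32 genes tested in CA1 and 0 of the 31 tested in each of the other subfields, with 0 at an unadjusted p under 0.05 in each, while the comparisons called 0.31%, 0% and 0.292% of all genes, the last with 0.0143% as lower. For status it called 0 in each, with 0, 0 and 1 gene at an unadjusted p under 0.05, while 0% of all genes were called in each. In the WT table the unadjusted counts were 1, 0 and 0 for age, where 0.161%, 0% and 0.111% of all genes were called, and 0, 0 and 2 for status, where 0% were called. edgeR and DESeq2 called 0 mitochondrial genes in each of these comparisons as well.

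The groups overlapped for every gene described. In CA1 of the poly-A table Mt-co1 had 413748, 473087 and 550103 normalised reads in the lowest, median and highest young library, 407595, 488821 and 678012 in AU and 412962, 495088 and 740633 in AI. The young libraries lay within the range of the aged ones. ND1 had 98954, 114797 and 136445 in young, 108372, 122469 and 172297 in AU and 103038, 125556 and 178230 in AI, and gave the largest messenger estimate for age in CA1, 0.13 (SE 0.08, limma adjusted p = 0.889). All 13 messenger estimates for age in CA1 were positive, from 0.07 to 0.13, and their 95% confidence intervals together reached from -0.14 to 0.30. In DG the intervals for age reached from -0.18 to 0.27, and in CA3, where libraries spread most, from -0.33 to 0.43. The WT table did not share the direction in CA1, with 3 messenger estimates positive and 10 negative (-0.09 to 0.06, intervals from -0.35 to 0.34). Its age estimates were negative for 12 of 13 messengers in CA3 (intervals from -0.50 to 0.24) and positive for all 13 in DG (intervals from -0.25 to 0.65).

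For AI against AU in the poly-A table, the messenger intervals of CA1 together reached from -0.30 to 0.22, those of CA3 from -0.42 to 0.42 and those of DG from -0.21 to 0.26. These intervals and those for age come from fits without the rat number series, which shifted the CA3 messengers by 0.41 to 0.74. Within these fits they bound what a difference could be, and do not show that the groups were alike. The mitochondrial share of reads followed the same pattern. In CA1 it was 13.8% ± 1.11 in young (SD, n = 10), 14.6% ± 1.87 in AU (n = 12) and 14.6% ± 2.28 in AI (n = 12), and in DG 11.5% ± 0.860, 11.7% ± 1.53 and 11.8% ± 1.76. In DG of the WT table every messenger and rRNA estimate was lower in AI, by 0.12 to 0.31 for messengers and by 0.35 and 0.40 for the rRNAs (limma adjusted p = 0.488 for both rRNAs). There the AU group held both WT libraries of DG with the highest mitochondrial shares, rat R2232 at 19.7% and rat R9860 at 17.0%, while the median AU library was at 9.15%.

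**Figure D5:**
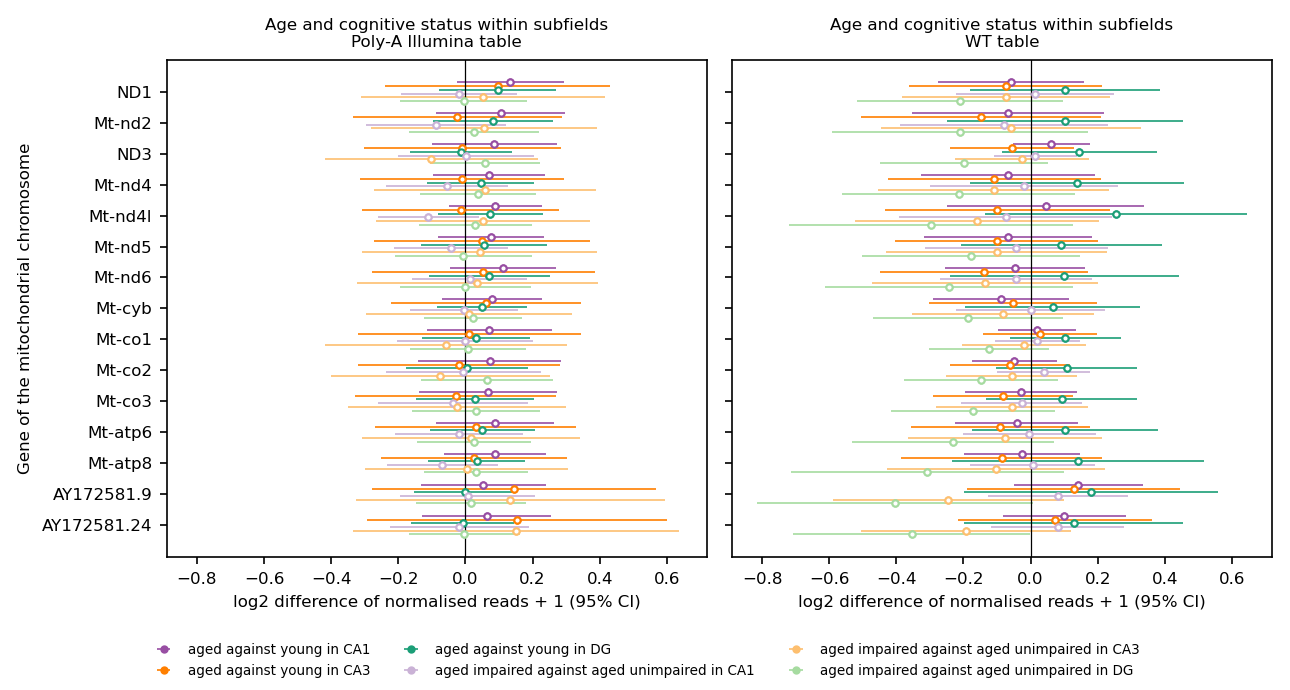
Differences with age (aged minus young) and with cognitive status (AI minus AU) within each subfield, as log2 differences with 95% confidence intervals (x axis) for the protein-coding and rRNA genes (y axis), in the poly-A table (left) and the WT table (right). All points are open, meaning a limma adjusted p of 0.05 or more. The WT estimates for status in DG lie furthest from 0.

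Tests of whether the effect of age or of status differed between subfields called 0 mitochondrial genes by limma in either table, where 0% of all genes were called. At most 2 of the members had an unadjusted p under 0.05 in any of these tests. Among the nuclear subunits and the 4 lists of genes that serve the mitochondrial chromosome, 0 of 68 and 0 of 62 tested genes were called for age or status in any subfield of the poly-A table, where 0.31%, 0% and 0.292% of all genes were called for age and 0% for status. Of 10 microglial markers in the poly-A table, CA1 had 2 called higher with age, CA3 had 0 and DG had 4, and of 10 astrocyte markers the counts were 0, 0 and 1. Trem2, a microglial surface receptor, was 0.49 higher in aged CA1 (SE 0.09, limma adjusted p = 0.00747), and Gfap, the astrocyte filament protein, was 0.41 higher in aged DG (SE 0.07, limma adjusted p = 0.00274). In the WT table markers of these 2 cell types were called with age in CA1 only. They were Gfap, 0.45 higher (SE 0.10, limma adjusted p = 0.0365), and the microglial marker C1qa, 0.35 higher (SE 0.06, limma adjusted p = 0.00614).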

How the data were processed

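Per the labels and the study's methods, RNA of CA1, CA3 and DG was sequenced. For the poly-A Illumina table the submitters' processing notes name bcl2fastq 2.17, cutadapt 1.8.3, STAR 2.5, featureCounts 1.4.4, DESeq2 1.16.1 and the rn5 genome, with replicates kept apart. For the WT table the library type is not given in the sources used here. The unit of the values deposited by the authors is a normalised signal, that is gene counts divided by 1 DESeq2 size factor per library. Whole reads were recovered from the steps of the values, and their totals are the depths given. Of the lower values, 100% lay within 0.01 read of a whole number. The highest counts, among them those of abundant mitochondrial messengers, were not part of this check. The labels and the methods name different TruSeq kits, so strand use is unknown. Reads of overlapping genes (Mt-atp6 and Mt-atp8, Mt-nd4 and Mt-nd4l), of Mt-nd6 and of nuclear copies of mitochondrial DNA may be shared. Another table, from an Ion Proton, listed all 37 mitochondrial genes at 0 in every library and was not used. Start and end positions, gene lengths and sequences of the mitochondrial chromosome were not used here.

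A gene entered a fit when its mean over the libraries of that fit was 10 or more, and limma 3.58.1 (R 4.3.3, variance trend) was run on log2(value + 1), a scale that understates changes of low genes, with Benjamini-Hochberg adjustment over all tested genes and a threshold of 0.05. Subfields were compared in 1 fit per table, and age and status within each subfield. The study itself tested with DESeq2. edgeR 4.0.16 and DESeq2 1.42.0 on the recovered reads were alternatives, beside another pseudocount (0.1), no filter, scaling to nuclear reads, and leaving out deep rats (7 rats with the highest poly-A depths in every subfield) or libraries nearer another subfield. On simulated data the limma fits were checked to recover known changes. Those changes were larger than the messenger differences between subfields, and no rat or series effect was simulated. The check therefore does not show the power for differences of the size given here. Rat number was a block in a further alternative, since each rat gave 3 subfields. For age and status, the rat number series was fitted as a covariate in another. Same-rat libraries deviated together weakly in the poly-A table (median correlation 0.0532 for CA1 and CA3, 0.240 for CA1 and DG, 0.000158 for CA3 and DG). Separate rats are the replicates. Fits within the rat number series, the test between the series and the fits without rRNA-rich libraries (over the median plus 3 scaled median absolute deviations) were chosen after seeing the data. Named were all messenger and rRNA genes, the 3 most abundant tRNA genes per table, the 3 tRNA genes that changed most per comparison and up to 2 changed genes per list. The members and lists were chosen with earlier results of these data known. Figures were drawn with matplotlib 3.10.9.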

Additional observations from a re-analysis of the deposited data

Results flagged for a closer look

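In groups of 10 young libraries, 13 of 108 tested values had an extreme library whose gap to its neighbour exceeded Dixon's 95% critical value of 0.466, all in the WT table. Chance gives about 1 in 20 such groups, and the values come from 2 libraries, so they are not separate events. In the CA1 library of young rat R9876 the rRNAs took 41.3% of mitochondrial reads (other young CA1 libraries 47.0% to 52.8%), and the normalised reads were high for ND1 (15813, others 6761 to 11168), Mt-cyb (16167, others 8126 to 11888), Mt-atp6 (33293, others 16267 to 24182) and Mt-atp8 (4936, others up to 3172). In the DG library of young rat R9879 8 messengers stood above the other 9 libraries. These were Mt-nd6 (1560, others up to 1043), Mt-nd4 (10195, others up to 6578), Mt-nd5 (9957, others up to 6859) and ND1 (11871, others up to 8637). They also included Mt-nd2 (6768, others up to 4331), Mt-cyb (14213, others up to 9402), Mt-atp6 (27966, others up to 19602) and Mt-atp8 (4426, others up to 2769).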

How the results depend on the processing

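The 26 calls between CA1 and DG in the poly-A table stayed within 1.5 times that count under every alternative run, and every age and status comparison stayed at 0 calls. The other counts moved. The share of all genes called in the same fit stands in parentheses. For CA1 against CA3 in the poly-A table (1 call, 35.4%), scaling to nuclear reads gave 4 (36.5%), leaving out deep rats 2 (28.4%), leaving out libraries nearer another subfield 14 (46%), leaving out the rRNA-rich library 3 (38.8%), rats below 9000 19 (55.4%) and rats from 9000 up 0 (13.7%). For CA3 against DG there (22 calls, 55.6%), libraries nearer another subfield left out gave 13 (59.2%) and rats below 9000 gave 6 (62%). In the WT table, CA1 against CA3 (2 calls, 33%) gave 0 without a filter (19.7%), 1 with DESeq2 (35.2%), 5 with nuclear scaling (35.1%), 1 without deep rats (27.2%), 4 without libraries nearer another subfield (44%), 8 below 9000 (51.7%) and 1 from 9000 up (12.5%). CA1 against DG (6 calls, 45.9%) gave 3 without deep rats (40.6%), 0 from 9000 up (26.7%) and 11 without rRNA-rich libraries (46.3%). CA3 against DG (1 call, 48.7%) gave 0 with edgeR (49.5%), with DESeq2 (50.1%) and without deep rats (43.5%), and 2 with nuclear scaling (48.2%), without libraries nearer another subfield (50.8%) and below 9000 (57.1%). The cause of these moves was not tested.

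With the rat as a block, the pairing raised the calls for CA1 against CA3 from 1 to 8 in the poly-A table and from 2 to 6 in the WT table, and for CA1 against DG in the WT table from 6 to 10, where the share of all genes called rose to 40.7%, 36% and 48.7%. It moved no other count by more than 1.5 times. Of the 44 named differences, 7 changed sign: in rats from 9000 up AY172581.23 for CA1 against CA3 (-0.01441), and in rats below 9000, for CA3 against DG, Mt-nd6 (-0.02054), Mt-co3 (-0.003203), Mt-cyb (-0.04617), Mt-atp6 (-0.02225), Mt-co1 (-0.0127) and AY172581.18 (-0.005263). Low counts kept 6 tRNA genes out of the poly-A subfield test and 12 out of the WT test.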
